A study of Rattus norvegicus with 8 samples.

Results

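The vascular endothelial growth factor (VEGF) ligands and their receptors were examined here in ovaries of rats exposed to an androgen. Its members were chosen by name as the 5 ligand genes Vegfa, Vegfb, Vegfc, Vegfd and Pgf, the 2 receptor tyrosine kinase genes Kdr and Flt1 and the co-receptor gene Nrp1. These are 8 of the 14217 genes that were represented by a probe set with a single gene symbol, and they were read by 14 of the 31042 probe sets tested. Female Sprague-Dawley rats carried a capsule releasing 5α-dihydrotestosterone (DHT group) or an empty capsule (CTL group) for 12 weeks, and the ovarian cortex was collected at 15 weeks of age. RNA of 3 DHT and 3 CTL rats was hybridised to 1 Affymetrix Rat Genome 230 2.0 array per animal, and 1 further array per group received RNA pooled from the same 3 animals. The animals model the hyperandrogenism of polycystic ovary syndrome, and according to the study's methods corpora lutea were seen in most CTL ovaries and in few or no DHT ovaries. The tissue was bulk cortex, so fewer cells of a type and less RNA per cell cannot be told apart. Every measured granulosa (9), theca (5) and luteal cell (9) marker gene was above background on at least 1 array. So were all 21 endothelial and 14 macrophage markers, and 20457 of the 31042 probe sets. Passing this level therefore does not identify the tissue.

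VEGF-A is the main growth factor of blood vessel formation. It acts on endothelial cells through the receptor VEGFR2, which is encoded by Kdr and carries most of the signal for endothelial growth and permeability. VEGFR1, encoded by Flt1, binds VEGF-A, VEGF-B and placental growth factor (Pgf) with high affinity and signals weakly, and its soluble form is a decoy that keeps ligand away from VEGFR2. VEGF-C and VEGF-D act mainly on lymphatic endothelium, and neuropilin 1 (Nrp1) is a co-receptor shared by VEGF-A and the class 3 semaphorins. In the cycling ovary, follicles and above all the forming corpus luteum make VEGF-A and grow a dense capillary bed.

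The largest negative differences between DHT and CTL among the members were measured for Vegfa, Flt1 and Kdr, and the promoter sequences of these 3 genes are shown for that reason. All 8 members had a RefSeq window of 250 bases before to 50 bases after a transcript start on the rat assembly GRCr8. The windows of all 27457 genes in that reference were searched on both strands for the GC box GGGCGG, for the hypoxia response cores ACGTG and GCGTG, which are bound by hypoxia-inducible factors, and for AGAACA, a half-site of the androgen receptor. The 2 cores differ only in their first letter, and a match of GCGTG can share a base with a GC box. Capitals mark GGGCGG (read as CCGCCC on the other strand) and GCGTG. The stretches shown are the bases before the gene start of Vegfa (chr9:22452604-22452853, plus strand) and of Kdr (chr14:32571813-32572030, plus strand), and a stretch of 30 bases upstream of a RefSeq transcript start of Flt1 (chr12:12333355-12333384, plus strand). That transcript start lies inside the annotated gene, 380 bases from the gene start. The Flt1 stretch was cut around the GC box marked in it.
Vegfa: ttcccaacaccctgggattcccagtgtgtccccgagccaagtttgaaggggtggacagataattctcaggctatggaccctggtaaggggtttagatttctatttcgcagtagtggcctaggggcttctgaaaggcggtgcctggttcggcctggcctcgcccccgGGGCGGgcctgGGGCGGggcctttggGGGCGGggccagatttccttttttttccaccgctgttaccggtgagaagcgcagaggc
Kdr: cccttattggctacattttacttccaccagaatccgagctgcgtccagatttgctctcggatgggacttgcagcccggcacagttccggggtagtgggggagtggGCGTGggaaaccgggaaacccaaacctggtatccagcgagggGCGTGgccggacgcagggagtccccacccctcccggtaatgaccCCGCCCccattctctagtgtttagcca
Flt1: tataaatcgcccCCGCCCtcggctgcgctt

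In the whole windows, the GC box occurred 3 times for Vegfa, 3 times for Flt1 (1 of them in the stretch shown) and 1 time for Kdr, against a share of 34.9% of all windows that hold it at least 1 time. Vegfb held 4 GC boxes and Vegfc and Pgf held 2 each, while Vegfd and Nrp1 held 0. The core GCGTG, present in 31.1% of all windows, occurred in Kdr and Nrp1 (2 times each) and in Flt1, Vegfb and Pgf (1 time each). Neither ACGTG (19.7% of all windows) nor AGAACA (20% of all windows) occurred in the 8 members' windows. Vegfa, Kdr and Flt1 thus each held the GC box, as did 3 of the other 5 members. These matches describe letters in a short window only.

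Values are given on the log2 scale of the deposited GCRMA normalisation, where a difference of 1 is a 2-fold change. A probe set was called changed by the study's criteria, namely a fold change of at least 2, p of at most 0.01 and a false discovery rate of at most 10% in limma over all probe sets. By these criteria 320 probe sets (1.03% of those tested) were called on the 6 single-animal arrays, 109 lower (0.351%) and 211 higher (0.68%) in DHT. The study reported more changed transcripts by the same criteria, and does not say whether the pooled arrays entered its fit. With the pools counted as replicate 4, 966 probe sets were called here, Vegfa, Flt1 and Kdr among them, but such a fit counts each animal more than once. In the fit of the 6 single-animal arrays, none of the 8 members was called in limma (0 lower, 0 higher). There, 3 members had an unadjusted p under 0.05, against 11.9% of all probe sets. The same 3, Vegfa, Flt1 and Kdr, were lower by at least 2-fold in DHT, with every DHT animal below every CTL animal. A mean at least 2-fold lower was found for 2.74% of all probe sets, and every DHT animal below every CTL animal for 6.85% (9.58% of those above background on at least 1 array). The other 5 members overlapped between the groups, and 6 of the 8 were above background on all 6 arrays, background being the 95th percentile of 29 probe sets for olfactory, vomeronasal and taste receptors on the same array.

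CTL replicate 3 stood apart from the other arrays and touched most of these results. Its values over all probe sets correlated at 0.866 to 0.879 with those of CTL replicates 1 and 2, which correlated with each other at 0.983, while the DHT animals correlated at 0.984 to 0.995 among themselves. The log2 difference between the 3′ and 5′ Gapdh control probe sets, a sign of RNA integrity that is larger in degraded RNA, was 0.39 and 0.62 in CTL replicates 1 and 2, 3.49 in CTL replicate 3 and 2.99 to 3.98 in the DHT animals. Values without this array are therefore given beside the results that it touches. Without CTL replicate 3, 1622 probe sets (5.23%) were called, 968 of them lower (3.12%), and Vegfa, Flt1 and Kdr were all called lower. In that fit both CTL animals left had a small Gapdh difference and all DHT animals a large one. Treatment and RNA integrity cannot be told apart there. With that Gapdh difference as covariate, 3747 probe sets (12.1%) were called and 1 member, Flt1, was among the 1088 called lower (3.5%). The covariate fit separates treatment from RNA integrity mainly through CTL replicate 3, the only CTL animal with a large Gapdh difference.

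**Figure D1:**
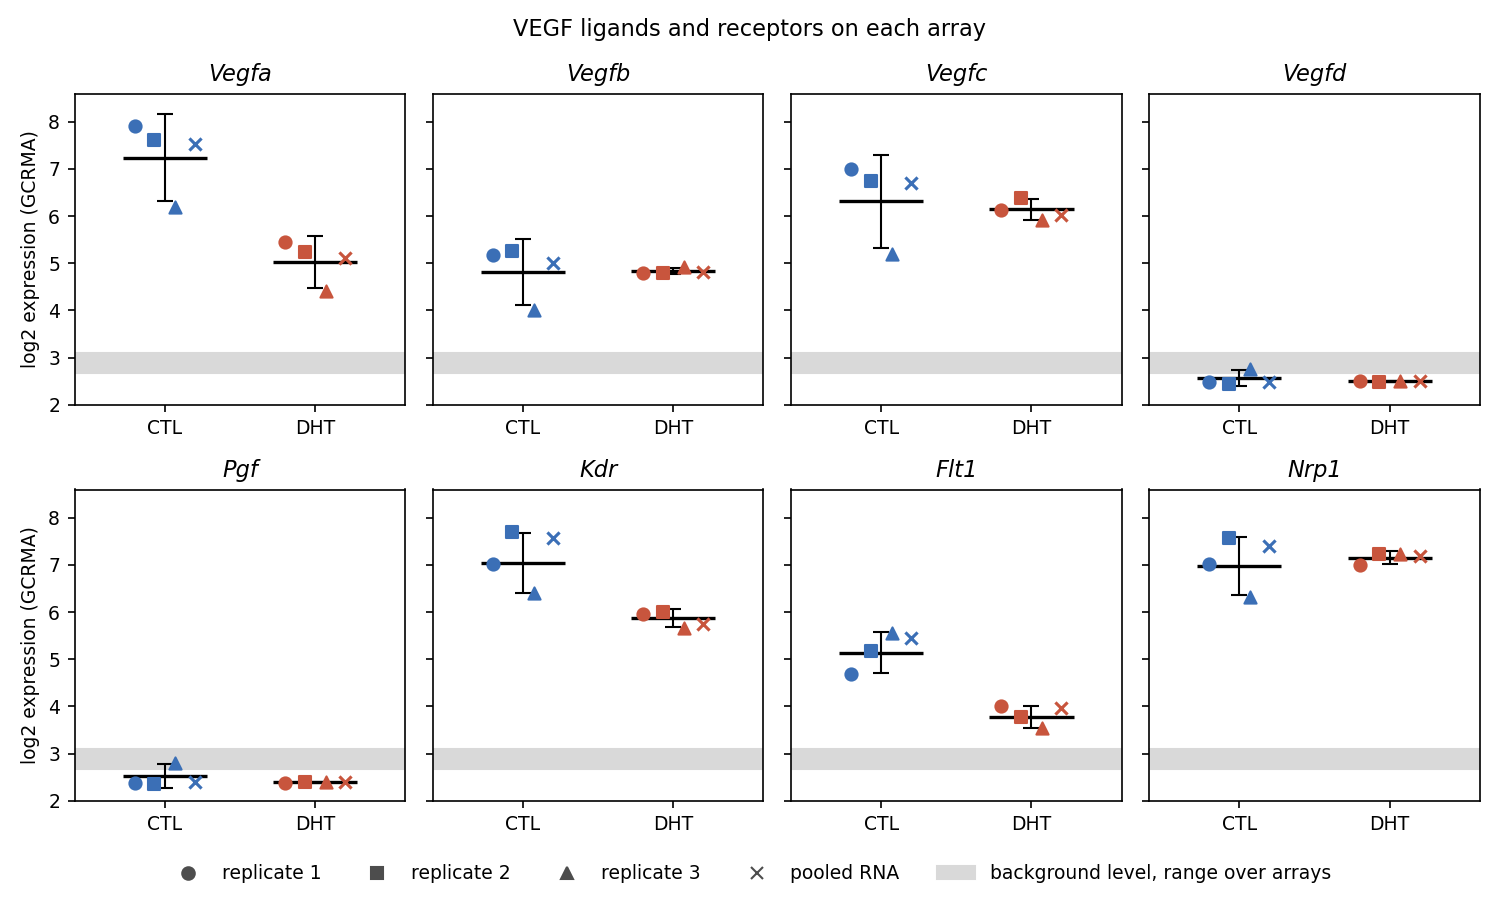
Log2 GCRMA expression of the 8 members (main probe set of each gene) on every array, with CTL in blue and DHT in red. Horizontal lines are means and bars are SD over the 3 single-animal arrays, crosses are the pooled RNA arrays outside those means, and the grey band is the range of the background level over the arrays. For Vegfa, Kdr and Flt1 the 3 DHT animals lie below the 3 CTL animals, and Vegfd and Pgf lie in or under the band.

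Among the ligands, Vegfa showed the largest difference. Its main probe set (1373807_at) read 7.91, 7.62 and 6.18 in CTL replicates 1, 2 and 3 and 5.44, 5.23 and 4.41 in DHT replicates 1, 2 and 3. Even the lowest CTL animal, replicate 3, thus lay above the highest DHT animal. The mean was 7.24 ± 0.92 in CTL and 5.03 ± 0.55 in DHT (SD, n = 3 each), a log2 difference of -2.21 (SE 0.55, 95% confidence interval -3.60 to -0.82) or 4.63-fold lower. This difference met the fold and p criteria, but its adjusted p of 0.188 in limma lay over the false discovery limit and it was not called. The spread of the CTL animals was set by replicate 3: against replicates 1 and 2 alone the difference was -2.74 (adjusted p = 0.042, called), whereas against replicate 3 alone it was -1.16. With the Gapdh covariate the difference was -1.10 (adjusted p = 0.066) and missed the p criterion of 0.01.

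The second Vegfa probe set (1370081_a_at) was dim. It read 3.77, 3.38 and 2.81 in the CTL animals and 2.74, 2.74 and 2.75 in the DHT animals, and was above background on 2 CTL and 2 DHT arrays. All DHT values again lay below all CTL values, with a log2 difference of -0.57 (SE 0.25, adjusted p = 0.465 in limma). CTL replicate 3, at 2.81, lay under the background of its own array (3.09), so its place above the DHT animals carries no information. For both Vegfa probe sets, CTL replicates 1 and 2 lay above all DHT animals. The fold change of the second may be understated this close to background, which was not tested.

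Vegfb, whose product binds Flt1 and not Kdr, did not separate the groups. Its probe set (1380854_at) read 5.18, 5.26 and 4.0 in CTL and 4.79, 4.80 and 4.92 in DHT. CTL replicates 1 and 2 were above every DHT animal and CTL replicate 3 was below them. The log2 difference was 0.023 (95% confidence interval -0.89 to 0.94, adjusted p = 0.978 in limma), an interval that leaves room for close to a 2-fold change either way. Without CTL replicate 3 it was -0.38 (adjusted p = 0.044), below the 2-fold criterion, and with the Gapdh covariate it was 0.76 (adjusted p = 0.049). The sign also turned with that array kept, at -0.027 with the pools and -0.039 with quantile normalisation, so it is not determined.

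Vegfc, a ligand of lymphatic vessel growth, gave the same picture. Its probe set (1368463_at) read 7.0, 6.74 and 5.19 in CTL and 6.13, 6.37 and 5.92 in DHT. Once more the DHT animals lay between CTL replicate 3 and the other CTL animals. The log2 difference of -0.17 (95% confidence interval -1.47 to 1.13, adjusted p = 0.907 in limma) became -0.73 without CTL replicate 3 (adjusted p = 0.099, under 2-fold) and 0.96 with the Gapdh covariate (adjusted p = 0.016, under 2-fold). The gene of the main VEGF-C receptor, Flt4, was named after its values were seen, and read 3.01, 2.96 and 4.10 in CTL and 3.19, 2.98 and 3.27 in DHT with overlapping groups.

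Vegfd and Pgf could not be measured above background. Vegfd (1387709_at) read 2.45 to 2.76 in CTL and 2.49 to 2.50 in DHT, and Pgf (1368919_at) read 2.35 to 2.81 in CTL and 2.37 to 2.40 in DHT. For both genes the highest of the 6 values belonged to CTL replicate 3, the array that also had the highest background (3.09 against 2.67 to 2.77 on the other single-animal arrays). The second Pgf probe set (1368918_at) read 2.23 to 2.31 in CTL and 2.23 to 2.24 in DHT. At such values no difference between the groups was detectable, which does not show that the transcripts were absent. Leaving out CTL replicate 3 gave log2 differences of 0.027 for Vegfd and 0.019 for Pgf.

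Kdr, the gene of the principal signalling receptor, was lower in DHT. Its main probe set (1367948_a_at) read 7.01, 7.69 and 6.41 in CTL and 5.97, 6.0 and 5.66 in DHT. The gap between the groups was narrow, at 6.41 for the lowest CTL animal and 6.0 for the highest DHT animal. With a mean of 7.04 ± 0.64 in CTL and 5.88 ± 0.19 in DHT (SD, n = 3 each), the log2 difference was -1.16 (SE 0.34, 95% confidence interval -2.03 to -0.29), or 2.24-fold lower. It missed the p criterion and the false discovery limit (adjusted p = 0.268 in limma). Without CTL replicate 3 the difference was -1.48 (adjusted p = 0.059, called), against CTL replicate 3 alone it was -0.53, and with the Gapdh covariate it was -0.55 (adjusted p = 0.220). The other Kdr probe set (1397868_at) was at background on all 6 arrays, with 2.22 to 2.40 in CTL and 2.23 to 2.26 in DHT.

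Flt1, the gene of the high-affinity receptor and decoy, had the smallest p of the 8 members. Its main probe set (1377113_at) read 4.69, 5.18 and 5.55 in CTL and 4.02, 3.77 and 3.54 in DHT. Here CTL replicate 3 was the highest of all animals, unlike in the other 5 members above background, where it was the lowest CTL animal. From a mean of 5.14 ± 0.44 in CTL to 3.78 ± 0.24 in DHT (SD, n = 3 each), the log2 difference was -1.37 (SE 0.26, 95% confidence interval -2.02 to -0.71), or 2.58-fold lower. It met the fold and p criteria and missed the false discovery limit of 10% with an adjusted p of 0.115 in limma. The difference was -1.16 without CTL replicate 3 (adjusted p = 0.074, called), -1.78 against CTL replicate 3 alone and -1.74 with the Gapdh covariate (adjusted p = 0.018, called). Like Vegfa and unlike Kdr, Flt1 stayed past 2-fold under each of these treatments of the deviating array, and it was the only member called in the covariate fit.

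Both other Flt1 probe sets stayed near background throughout. They read 2.59 to 2.70 (1369087_at) and 2.39 to 2.49 (1370492_a_at) in CTL, and 2.58 to 2.62 and 2.39 to 2.40 in DHT. The Flt1 result therefore rests on a single probe set, as does that of Kdr. Averaging all probe sets of a gene, those at background included, gave log2 differences of -0.48 for Flt1 and -0.60 for Kdr. Which transcript forms these probe sets read is not known from the files.

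Nrp1, the co-receptor, did not separate the groups. Its main probe set (1373577_at) read 7.03, 7.57 and 6.33 in CTL and 6.99, 7.23 and 7.24 in DHT, and the DHT animals lay inside the range of the CTL animals. The log2 difference was 0.18 (95% confidence interval -0.65 to 1.01, adjusted p = 0.896 in limma) and was -0.14 without CTL replicate 3. Its second probe set (1370570_at) read 5.31, 6.24 and 5.81 in CTL and 5.76, 5.67 and 6.18 in DHT, with a log2 difference of 0.083 (adjusted p = 0.912). A fall of 2-fold, as measured for Kdr and Flt1, lay outside both confidence intervals of Nrp1, the second of which ran from -0.62 to 0.79.

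**Figure D2:**
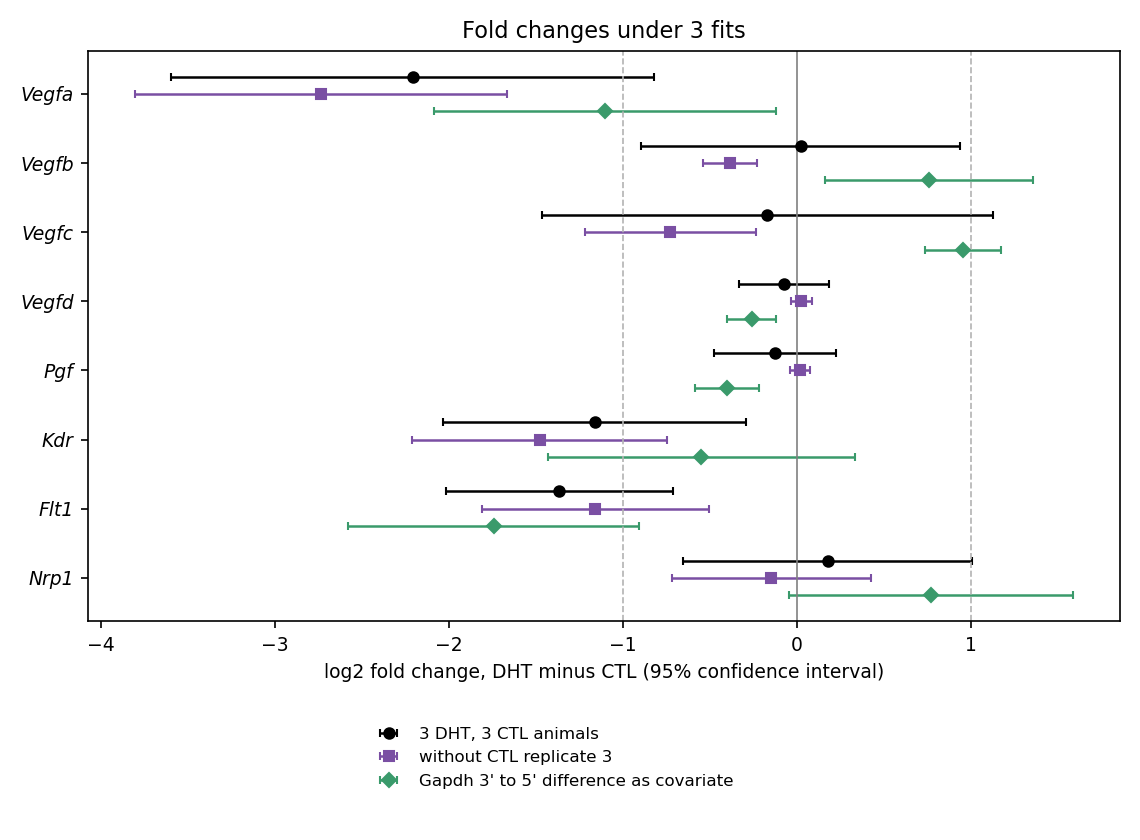
Log2 fold change of each member (DHT minus CTL) with its 95% confidence interval from limma in 3 fits: all 6 single-animal arrays (black), without CTL replicate 3 (purple) and adjusted for the 3′ to 5′ Gapdh difference (green). Dashed lines mark a 2-fold change. Vegfa, Kdr and Flt1 lie left of 0 in every fit, with Kdr at -0.55 and an interval across 0 in the covariate fit, while the other 5 members change sign between fits.

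The arrays of pooled RNA held the same animals and gave 1 value per group, so they serve as a check of the hybridisation and not as further replicates. Vegfa read 7.52 in the CTL pool and 5.11 in the DHT pool, which is 5.34-fold lower. Kdr read 7.57 and 5.75 (3.53-fold lower) and Flt1 read 5.45 and 3.96 (2.81-fold lower). These 3 members were at least 2-fold lower in the pool, as were 3.52% of all probe sets. The CTL pool should lie near the average of its 3 animals, whose mean on the linear scale corresponds to log2 values of 7.41 for Vegfa, 7.13 for Kdr and 5.18 for Flt1, and the pool lay above that by 0.12, 0.44 and 0.27. Vegfb (4.99 and 4.82), Vegfc (6.70 and 6.02) and Nrp1 (7.40 and 7.20) differed by less than 2-fold between the pools. If the pools were counted as replicate 4, Vegfa (adjusted p = 0.023), Kdr (adjusted p = 0.040) and Flt1 (adjusted p = 0.011) were all called lower, among 966 probe sets called (3.11%), 433 of them lower (1.39%), although such a fit counts each animal more than once.

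The other genes of the pathway were taken from 4 lists, and few of them were called. Of 28 measured VEGF signalling genes (kinases, adaptors and effectors downstream of the receptors), 0 were called in limma, 1 had an unadjusted p under 0.05, 12 had a negative and 16 a positive log2 fold change, and the median was 0.023 beside -0.029 over all probe sets. Within this list the smallest p belonged to Pik3ca, a catalytic subunit of phosphoinositide 3-kinase, which read 6.82 to 7.16 in CTL and 7.43 to 8.02 in DHT (log2 difference 0.69, adjusted p = 0.240). Nos3, the endothelial nitric oxide synthase, followed with 2.62 to 3.15 in CTL and 2.55 to 2.58 in DHT (log2 difference -0.37, adjusted p = 0.439), values close to background. When CTL replicate 3 was left out, the median was -0.013 and 1 gene of this list was called lower and 1 higher. In the fit with the Gapdh covariate 5 of the 28 were called, all of them higher. That fit called 12.1% of all probe sets, 2659 higher and 1088 lower.

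The semaphorins and plexins, which share Nrp1 with VEGF-A, had 0 of 13 measured genes called in limma, 2 with an unadjusted p under 0.05, 10 negative and 3 positive values and a median of -0.070. Sema3b, a secreted semaphorin, read 2.74 to 2.96 in CTL and 3.25 to 3.8 in DHT (log2 difference 0.78, adjusted p = 0.152). Sema3c, another ligand of neuropilins, read 4.94 to 6.14 in CTL and 6.72 to 6.97 in DHT (log2 difference 1.19, adjusted p = 0.236). Both had every DHT animal above every CTL animal, and the share of all probe sets with this order was not computed. Sema3b was above background on only 4 of the 6 arrays. The study lists Sema3c among its activated genes on these same arrays, so its rise here is no independent result. Leaving out CTL replicate 3 gave log2 differences of 0.86 for Sema3b and 0.84 for Sema3c, a median of 0.023 for the list and 1 of its genes called lower.

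Regulators of the hypoxia-inducible factors, the transcription factors that raise Vegfa under low oxygen, had 1 of 9 measured genes called, Arnt2, and a median of -0.016. Arnt2 encodes a partner subunit of these factors. It read 3.37, 2.94 and 3.01 in CTL and 4.18, 4.34 and 4.12 in DHT, higher in every DHT animal, and rose by a log2 difference of 1.10 (SE 0.14, adjusted p = 0.063 in limma). The study also lists Arnt2 among its activated genes on these arrays. CTL replicate 3 lay among the other CTL animals here, but under the background of its own array (3.09). Arnt2 was above background on 5 of the 6 arrays. The call held without CTL replicate 3 (log2 difference 1.06, adjusted p = 0.048 in limma). The call was lost on leaving out CTL replicate 2, and with quantile normalisation, a variance trend, the mean of all probe sets or a false discovery rate of 5%. It was also lost without any 1 of the DHT replicates and with a replicate block. In those settings 0 of all 31042 probe sets were called, so that loss is not particular to Arnt2.

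The 19 measured hypoxia targets other than the members had 0 called in limma, 2 with an unadjusted p under 0.05, 10 negative and 9 positive values and a median of -0.0070. Pfkfb3, a regulator of glycolysis, read 7.19, 9.03 and 6.49 in CTL and 4.27, 4.95 and 4.74 in DHT, a log2 difference of -2.92 (adjusted p = 0.172), and was called lower without CTL replicate 3 (-3.46, adjusted p = 0.067). Ndrg1, another oxygen-regulated gene, had the opposite direction, with 5.32 to 6.81 in CTL and 7.32 to 7.56 in DHT (log2 difference 1.23, adjusted p = 0.322). Of this list, 2 genes were called lower when CTL replicate 3 was left out, the median was then -0.11 and the difference of Ndrg1 0.79. In the fit with the Gapdh covariate 7 of the 19 were called, all of them higher, so the direction of the calls in this list depended on the fit. Over all probe sets that fit called 12.1%, 2659 higher and 1088 lower, so its calls leaned upward in general.

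**Figure D3:**
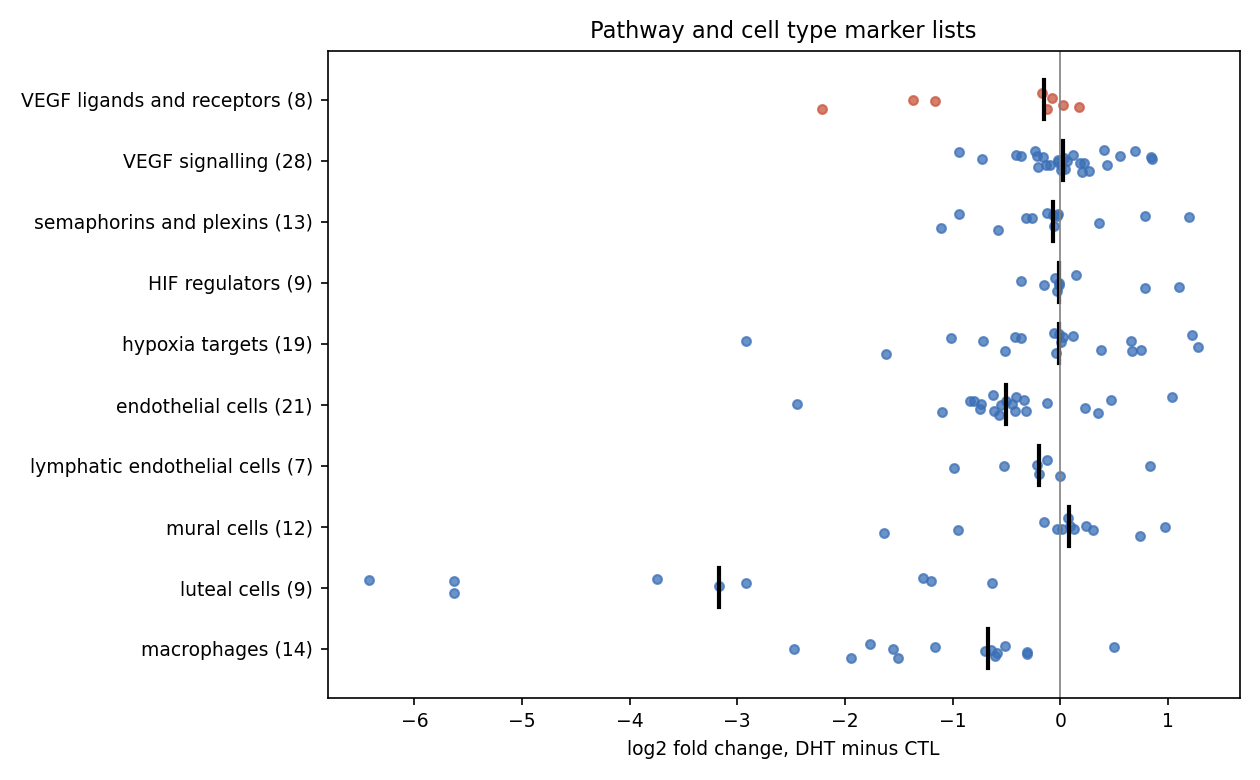
Log2 fold change (DHT minus CTL) of every measured gene of the members (red) and of the pathway and cell type lists (blue), with the number of genes in brackets and the median as a black bar. The pathway lists centre near 0 (medians -0.070 to 0.023), the endothelial markers centre at -0.51 and the luteal markers at -3.17.

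Kdr and Flt1 are made mainly by endothelial cells and luteal cells are a source of VEGF-A, so markers of these cells are given beside the members. Of 21 measured endothelial markers, 0 were called in limma, 4 had an unadjusted p under 0.05, 17 had a negative and 4 a positive log2 fold change, the median was -0.51, and for 6 of them the DHT animals were all under the CTL animals (1 the other way). The summed linear values of the list ranged from 1419 to 1696 in CTL and from 898 to 1279 in DHT, and each of the 21 was above background on at least 1 array. Gpihbp1, the capillary anchor of lipoprotein lipase, had the smallest p and read 5.89, 6.23 and 4.69 in CTL and 3.48, 3.25 and 2.75 in DHT (log2 difference -2.44, adjusted p = 0.113). Pecam1, the junction protein CD31, read 6.18, 6.19 and 5.30 in CTL and 4.76, 5.21 and 4.41 in DHT (log2 difference -1.10, adjusted p = 0.278). Smaller differences were measured for Eng, a co-receptor of transforming growth factor beta (-0.63, adjusted p = 0.234), and for Mmrn2, an endothelial matrix protein (-0.57, adjusted p = 0.372). Of the 4 positive markers Cldn5, named after its values were seen, had the largest difference. It read 7.09, 6.80 and 5.23 in CTL and 7.47, 7.38 and 7.40 in DHT, with every DHT animal above every CTL animal. Its log2 difference was 1.04 (adjusted p = 0.528 in limma), and 0.47 without CTL replicate 3. Without CTL replicate 3 the median was -0.69, and Gpihbp1 and Pecam1 were called lower (adjusted p = 0.026 and 0.068).

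The markers of luteal cells differed most among the cell type lists. This list holds Rln1, A2m, Hsd17b7, Star and Cyp11a1, which the study reported as repressed on these same arrays. It was chosen with such results known, so its rank among the lists is no independent result. Other marker lists also hold genes that the study reported as changed. All 9 measured luteal markers were lower on average in DHT, their median log2 fold change being -3.17 (0 called in limma, 6 with an unadjusted p under 0.05), and their summed linear values were 12860.5 to 35446 in CTL and 1247 to 5463 in DHT. The groups did not overlap for 8 of the 9, and without CTL replicate 3 the median was -3.58 with 1 called lower. Macrophage markers had 13 of 14 negative values, a median of -0.67 and 1 called lower, with sums of 617 to 1524 in CTL and 396 to 504 in DHT. On leaving out CTL replicate 3 their median was -1.20 and 6 were called lower.

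Mural cell markers (12 measured) had a median of 0.080 with 0 called in limma and 1 at an unadjusted p under 0.05, and leaving out CTL replicate 3 turned the median to -0.24 with 1 called lower, the pericyte gene Rgs5, named after its values were seen. Lymphatic endothelial markers (7 measured) had a median of -0.20 with 0 called in limma and 1 at an unadjusted p under 0.05, and a median of -0.29 without that array. Granulosa markers (9 measured) had a median of 1.11 with 1 called higher, and 1.12 with 2 called higher without that array. Theca markers (5 measured) had a median of 1.53 with 1 called higher, and 0.97 with 1 called higher without it. The 4 measured red blood cell markers had a median of -0.037 with 0 called and 0 at an unadjusted p under 0.05, and a median of 0.013 without CTL replicate 3. The part of the luteal, macrophage and other marker differences in the lower values of Vegfa, Kdr and Flt1 was not tested. The comparison with the endothelial markers that follows does not test it either, since it cannot tell cell number from RNA per cell.

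The 3 receptor genes were next set against the mean log2 value of the 21 endothelial markers on the same array. This asks whether a receptor moved more than these markers did on average. Log2 differences of the markers ran from -2.44 (Gpihbp1) to 1.04 (Cldn5), so their mean need not follow the amount of endothelium. The absolute level of a receptor minus the marker mean has no meaning between probe sets and only its change between groups is read. The marker mean itself was 5.90, 5.82 and 5.33 in CTL and 5.40, 5.41 and 4.89 in DHT, a difference of -0.45 with overlapping groups. Kdr relative to this mean was 1.11, 1.87 and 1.08 in CTL and 0.57, 0.59 and 0.77 in DHT, lower by 0.71 in DHT than in CTL (difference -0.71), with no overlap. Flt1 relative to it was -1.22, -0.64 and 0.22 in CTL and -1.39, -1.64 and -1.35 in DHT, again with no overlap and a difference of -0.91. Nrp1 relative to it was 1.13, 1.75 and 1.0 in CTL and 1.59, 1.82 and 2.35 in DHT, a difference of 0.63 with overlap. By an exact two-sided permutation test Kdr and Flt1 each had p = 0.1 (0.15 after Benjamini-Hochberg adjustment over the 3 receptors), the smallest value that 3 against 3 animals allow, and Nrp1 had p = 0.2 (adjusted 0.2). This design cannot reach 0.05. Leaving out CTL replicate 3, the differences were -0.85 for Kdr, -0.53 for Flt1 and 0.48 for Nrp1. Averaging all probe sets of each gene gave -0.17 for Kdr and -0.050 for Flt1, and taking the median of the markers in place of their mean gave -0.57 and -0.77 with overlapping groups for both (exact p = 0.2 and 0.3). On the pooled arrays, with no test, the differences were -1.25 for Kdr, -0.92 for Flt1 and 0.36 for Nrp1.

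**Figure D4:**
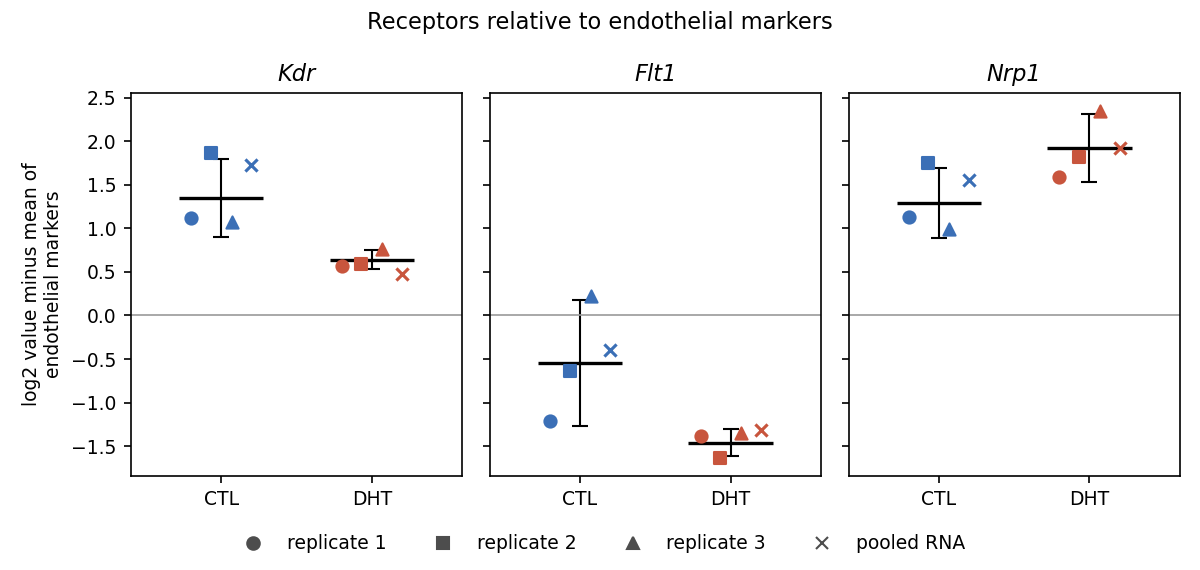
Log2 value of Kdr, Flt1 and Nrp1 minus the mean log2 value of 21 endothelial marker genes on the same array, in CTL (blue) and DHT (red), with means and SD over the 3 single-animal arrays and the pooled RNA as crosses. For Kdr and Flt1 the DHT animals lie below all CTL animals, and for Flt1 the gap to CTL replicate 1 (-1.22 against -1.35) is small, while Nrp1 overlaps.

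The genes whose values followed each member most closely over the 6 single-animal arrays were found among 10287 other genes above background on at least 3 arrays. The measure of likeness was Pearson's r over 6 arrays that fall into 2 groups, and it is given as a description. The genes nearest to Vegfa were Aen (r = 0.998, and 0.9998 without CTL replicate 3) and Sipa1 (0.996 and 0.996), and 102 genes (0.992%) reached 0.95. Pearson's r takes no account of the size of a change. The log2 difference was -0.16 for Aen and -0.80 for Sipa1, against -2.21 for Vegfa. Nearest to Kdr were Asns (0.994 and 0.995) and Ttc8 (0.994 and 0.994), with 121 genes (1.18%) at 0.95 or more. Flt1 was followed most closely by Crat (0.996 and 0.993) and Spg7 (0.989 and 0.991), and fewer genes, 54 (0.525%), reached 0.95. For Nrp1 the nearest were Mettl9 (0.995 and 0.986) and Adgrl1 (0.993 and 0.971), with 85 genes (0.826%).

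Vegfb and Vegfc had many more close neighbours. As many as 554 genes (5.39%) reached 0.95 with Vegfb, led by Hmgb3 (0.999) and Tubb4b (0.996), and 591 (5.75%) with Vegfc, led by Atp6v1g1 (0.999) and Twf1 (0.998). For both members CTL replicate 3 was the lowest of the 6 arrays, as it was for Nrp1. Vegfd and Pgf, both at background, had CTL replicate 3 as their highest value and 552 genes (5.37%) each at 0.95 or more. The nearest genes were Ptges3l1 (0.999) and Ltb (0.999) for Vegfd and Cplx3 (0.999) and Rnd1 (0.999) for Pgf, but values at background give no order of the animals, and without CTL replicate 3 the last 2 correlations were 0.862 and 0.846.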

How the data were processed

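Total RNA of ovarian cortex from 3 DHT and 3 CTL rats, labelled as independent animals, and of 1 pool of the same 3 animals per group was hybridised to Affymetrix Rat Genome 230 2.0 arrays. The authors deposited 1 log2 value per probe set and array, obtained by GCRMA (background correction, quantile normalisation and summarisation); versions and the genome build of the probe annotation are not given in the sources used here. GCRMA compresses low values, so fold changes near background are understated. The number of arrays limits the precision.

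Affymetrix controls (57) were left out, and 31042 probe sets were tested with limma 3.58.1 (lmFit, eBayes) in R 4.3.3, 3 DHT against 3 CTL arrays, with Benjamini-Hochberg adjustment over all of them. Platform annotation gave 20826 probe sets 1 symbol, 436 several and 9780 none, and only the first were named (20758 matched a RefSeq gene by Entrez identifier). Of several probe sets for a gene, the brightest by its 6-array mean stands for it. Named were all members, in each pathway list the genes called or else the 2 with the smallest p, the endothelial markers called or else the 4 with the smallest p, and the 2 genes most like each member. The members and lists were chosen with earlier results of these data known. Listed genes without such a probe set were not analysed here. The fit was tested on simulated data. Alternatives were the pooled arrays as replicate 4, a replicate block, quantile normalisation, median scaling, leaving out dim probe sets, a variance trend, the Gapdh difference as a covariate, the mean of a gene's probe sets, other thresholds, the median of the endothelial markers, and leaving out each array. Figures were drawn with matplotlib 3.10.9 in Python 3.11.15.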

Additional observations from a re-analysis of the deposited data

How the results depend on the processing

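Vegfa, Kdr and Flt1 had a negative difference under every alternative run for them, but its size and the call varied, from -2.74 (without CTL replicate 3) to -1.10 (Gapdh covariate) for Vegfa, -1.48 to -0.55 (the same 2 settings) for Kdr, and -1.74 (Gapdh covariate) to -0.48 (mean of probe sets) for Flt1. The number of members called was 0 in limma (3 at an unadjusted p under 0.05) and became 3 with the pooled arrays as replicate 4, 3 at fold 2 and p 0.05 with no false discovery limit, and 1 (Flt1) with median scaling, with dim probe sets left out or with the Gapdh covariate. Leaving out each array gave 0 to 3, with 3 only without CTL replicate 3. Over all probe sets the count of 320 became 966 with the pools, 173 with quantile normalisation (86 lower, 87 higher), 61 with a variance trend, 3747 with the Gapdh covariate, 1117 with no false discovery limit and 28 at a false discovery rate of 5%, and 0 to 1622 on leaving out each array (0 without any 1 of the DHT replicates). Deviations of same-numbered animals correlated at -0.074, 0.44 and 0.34, and those of differently numbered animals at -0.53 to 0.48. These values do not settle whether replicate numbers pair the animals. With a replicate block 0 probe sets and 0 members were called. Of the probe sets called with the Gapdh covariate, 2659 were higher and 1088 lower. In the lists, VEGF signalling went from 0 to 5 called, all higher, with the Gapdh covariate (0 to 2 on leaving out each array). Semaphorins and plexins went to 1 with the pools, the covariate or no false discovery limit (0 to 1 on leaving out each array). The single call among the regulators of hypoxia-inducible factors was lost (0) with the block, quantile normalisation, variance trend, mean of probe sets and false discovery rate of 5%, and became 2 with the covariate (0 to 1 on leaving out each array, 0 without CTL replicate 2 or any DHT replicate). Hypoxia targets went to 1 with the pools, 7 (all higher) with the covariate and 2 with no false discovery limit (0 to 2 on leaving out each array). Relative to the endothelial markers, with the pools as replicate 4, Kdr was at -0.85 and Flt1 at -0.92, with no p given since the pools hold the same animals. The sign turned for Vegfb (-0.027 with the pools, -0.039 with quantile normalisation, -0.38 without CTL replicate 3, -0.018 without DHT replicate 3), Vegfc (0.96 with the covariate, 0.18 and 0.047 without CTL replicates 1 and 2), Vegfd (0.027), Pgf (0.019) and Nrp1 (-0.14), the last 3 without CTL replicate 3. On leaving out each array the range was -0.38 to 0.24 for Vegfb, -0.73 to 0.18 for Vegfc, -0.13 to 0.027 for Vegfd, -0.21 to 0.019 for Pgf and -0.14 to 0.48 for Nrp1. The causes were not tested.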
